A study of Schizosaccharomyces pombe with 30 samples.

Results

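The effect of the swr1∆ mutation on transcript levels and splicing was compared between 37 °C and 30 °C in the fission yeast Schizosaccharomyces pombe. The comparison uses the 3 arrays titled swr1∆ 37°C and the 3 arrays titled swr1∆ 30°C, which are 6 of the 30 arrays of the series. The 30 arrays form 10 groups of 3, made of deletion and DAmP (reduced mRNA abundance) mutants. Each mutant was hybridised against wild-type RNA on a 2-colour splicing array. Besides swr1∆ the groups carry pht1∆, usp107DAmP or prp16DAmP, singly or as double mutants. Some of these groups were shifted to a colder temperature, and they enter only the comparisons across groups given below. In the 37 °C group, swr1∆ cells (swr1-delta) and wild-type cells were both grown at 30 °C in the rich medium YES5 and then shifted to 37 °C for 2 hours. In the 30 °C group both strains were kept at 30 °C. Every value is therefore a ratio of mutant to wild type at its own temperature, and a heat response that both strains share cancels within an array. Wild-type RNA had no arrays of its own, so a change in it with temperature enters each difference too. The labels give no mating type or further markers of the strains, and do not say whether the replicates are separate cultures, so p-values reflect array-to-array spread alone, which may be technical.

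Swr1 is the ATPase of a chromatin remodelling complex that places the histone variant H2A.Z, called Pht1 in fission yeast, into nucleosomes, mostly next to transcription start sites. Many fission yeast genes hold several short introns, which the spliceosome recognises by a 5′ splice site, a branch site and a 3′ splice site. A raised intron signal relative to the exons of the same gene is the direction that unspliced RNA gives.

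Transcript level was read from the exon feature of 5069 genes. The splicing index, which is an intron feature's log ratio less the log ratio of the exons of its gene, was read for 4821 introns of 2315 genes. Junction features, which span spliced exons, numbered 4651. All values are log2 of mutant over wild type, and each difference is 37 °C minus 30 °C with its standard error (limma, n = 3 arrays each). A feature was called, and is said to have risen or fallen, at an adjusted p of at most 0.05 over all features of its kind (limma, Benjamini-Hochberg).

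The arrays at the 2 temperatures shared little of their pattern. Across genes, transcript levels correlated with r from 0.259 to 0.695 among the 37 °C arrays and from 0.00672 to 0.402 among the 30 °C arrays, and from -0.0484 to 0.159 for the pairs that cross temperatures. These are correlations across genes, which are not independent replicates. The spread of log ratios over all features was an SD of 0.146 to 0.199 on the 37 °C arrays and 0.200 to 0.368 on the 30 °C arrays. Array 1 at 30 °C also carried the same intron value more than once for 19.3% of its intron features, while the other 30 °C arrays did so for 2.25% and 6.24% and the 37 °C arrays for 0.207 to 0.62%. The number of arrays limits the precision.

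The exon feature of swr1 itself did not mark the deletion. It read -0.20, -0.16 and -0.21 on the 37 °C arrays and -0.25, -0.073 and 0.0038 on the 30 °C arrays, with a difference of -0.085 ± 0.15 (limma adjusted p = 0.827). The position of the probe relative to the deleted part is not given here, so this feature does not settle the genotype. The groups are therefore the arrays labelled swr1∆, called the 37 °C and 30 °C arrays below. The pht1 transcript read -0.066, 0.11 and 0.14 at 37 °C and -0.041, -0.20 and 0.00029 at 30 °C, a difference of 0.14 ± 0.14 (adjusted p = 0.663).

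Of 5069 genes, 74 were called (1.46%), with 51 higher at 37 °C (1.01%) and 23 lower (0.454%). Of the 74, 73 had arrays that did not overlap between temperatures, against 22.7% of all genes. The median difference over all genes was 0.053, and 60.1% of genes had a positive difference. Among the splicing indices, 16 of 4821 introns were called (0.332%), 5 higher (0.104%) and 11 lower (0.228%) at 37 °C. All 16 introns, which lie in 16 genes, had arrays that did not overlap, against 20.8% of all introns. Among junction features, 34 of 4651 were called (0.731%), 8 higher (0.172%) and 26 lower (0.559%), in 32 genes. For 31 of these 34 the arrays did not overlap, against 21.9% of all junction features. The splits by direction depended on the scaling of the arrays. With arrays scaled to equal spread, 82 introns were called higher and 116 lower and 52 junction features higher and 102 lower. With junction features as the reference of the index, 8 introns were called higher and 4 lower. The 4 of these that are among the 16, in bud20, SPAC186.08c, ptc3 and SPACUNK4.13c, were all lower.

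The counts also depended on single arrays. Without array 2 or 3 at 37 °C, 15 or 24 genes were called, and without array 1, 2 or 3 at 30 °C, 26, 32 or 245. Of 39 named transcripts that were called, 12, 32 or 25 lost the call without array 1, 2 or 3 at 37 °C, and 24, 21 or 9 without array 1, 2 or 3 at 30 °C. Introns called numbered 8 or 7 without array 2 or 3 at 37 °C, and 10 or 204 without array 1 or 3 at 30 °C. Junction features called numbered 10 or 8 without array 2 or 3 at 37 °C, and 10, 17 or 121 without array 1, 2 or 3 at 30 °C. Calls that held in all of the alternatives that gave a value included those of the mfm2, mat1-Mc and mat3-Mc transcripts, of bud20, ptc3, SPAC186.08c and mfm2 among 13 named introns, and of mcp1, psg2, SPAC27E2.14 and SPAC6F6.16c among 10 named junctions.

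**Figure D1:**
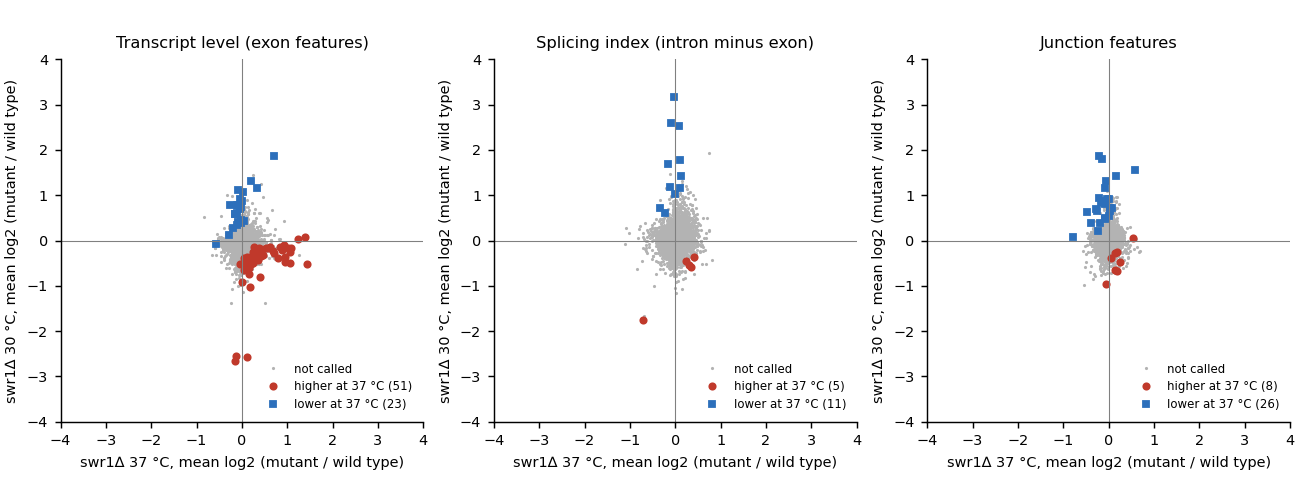
Mean log2 ratio of mutant to wild type at 37 °C (horizontal axis) against the mean at 30 °C (vertical axis) for every exon feature, splicing index and junction feature. Red circles were called higher and blue squares lower at 37 °C, and most called introns and junctions lie close to the vertical line at 0, that is near 0 at 37 °C and away from 0 at 30 °C.

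In most called introns and junctions it was the 30 °C value that stood away from wild type. The mean index at 37 °C lay within 0.3 of 0 for 12 of the 16 called introns, and that at 30 °C for 0 of 16. For junction features the counts within 0.3 of 0 were 29 of 34 at 37 °C and 5 of 34 at 30 °C. Transcripts differed from this by direction, in that 20 of the 23 called lower had a 37 °C mean within 0.3 of 0, against 22 of the 51 called higher. Since the same arrays chose these features, the counts are a description of them. The 37 °C arrays also had the narrower spread over all features (SD 0.146 to 0.199, against 0.200 to 0.368 at 30 °C). Values near 0 are thus more common at 37 °C in general, and the share of all features within 0.3 of 0 is not given here.

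The largest differences of any transcript were in genes of the M mating type. The Mc genes encode the HMG-box regulator that sets M identity, and mfm2 encodes a precursor of the M-factor pheromone. The exon feature of mfm2 read 0.025, 0.12 and 0.17 on the 37 °C arrays and -2.01, -2.44 and -3.28 on the 30 °C arrays, so that it lay near wild type at 37 °C and far below at 30 °C. It rose by 2.68 ± 0.29 (limma adjusted p = 3.29e-06). The expressed copy mat1-Mc read -0.26, -0.074 and -0.12 at 37 °C and -3.05, -2.14 and -2.77 at 30 °C, and rose by 2.50 ± 0.23 (adjusted p = 4.5e-07). Its counterpart at the silent locus, mat3-Mc, read -0.073, -0.028 and -0.30 at 37 °C and -2.98, -1.91 and -2.78 at 30 °C, and rose by 2.42 ± 0.25 (adjusted p = 1.41e-06). The annotated genes of both copies carry the same 250 bases before their start, and where the copies share sequence the array cannot tell their RNA apart. In all 3 genes every 30 °C array lay far below every 37 °C array. In RNA of whole cultures, fewer cells of a mating type and less of its RNA per cell cannot be told apart.

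The 250 bases before the annotated start of mat1-Mc (chrII:2114232-2114481, plus strand, RefSeq assembly ASM294v3) are shown because they hold the TR box, the sequence bound by the mating regulator Ste11. The capitals mark TTCTTTGTT, which was searched on both strands and occurs in the same window of 1.6% of 5134 annotated genes.

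mat1-Mc, 250 bases before the start: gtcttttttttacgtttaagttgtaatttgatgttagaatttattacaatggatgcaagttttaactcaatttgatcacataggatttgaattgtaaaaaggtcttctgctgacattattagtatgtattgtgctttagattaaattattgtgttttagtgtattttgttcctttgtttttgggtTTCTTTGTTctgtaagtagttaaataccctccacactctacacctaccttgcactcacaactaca

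Other mating genes did not all go with the Mc genes. Of 31 mating and pheromone genes measured, 3 rose (9.68%, against 1.01% of all genes) and 1 fell (3.23%, against 0.454%), with a median difference of 0.062, against 0.053 over all genes. That median was 0.0017 to 0.17 with single arrays left out, lowest without array 3 and highest without array 1 at 30 °C. The gene that fell, map3, encodes the M-factor receptor of P cells. It read 0.081, 0.023 and -0.11 at 37 °C and 1.25, 1.10 and 0.30 at 30 °C, and fell by 0.88 ± 0.18 (adjusted p = 0.0115), a direction opposite to that of the M genes. The other M-factor genes and the regulator ste11 were named after their values were seen. The M-factor gene mfm1 averaged -0.082 at 37 °C and -0.25 at 30 °C (adjusted p = 0.606). Its relative mfm3 averaged -0.55 at 37 °C and 0.15 at 30 °C (adjusted p = 0.0983). The ste11 transcript read -0.037, 0.062 and 0.033 at 37 °C and 1.71, 0.23 and -0.29 at 30 °C, so that the 30 °C arrays lay on both sides of the 37 °C arrays (adjusted p = 0.488). The labels do not give the mating type of mutant or wild type at either temperature, so a difference in mating type and an effect of temperature cannot be told apart.

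**Figure D2:**
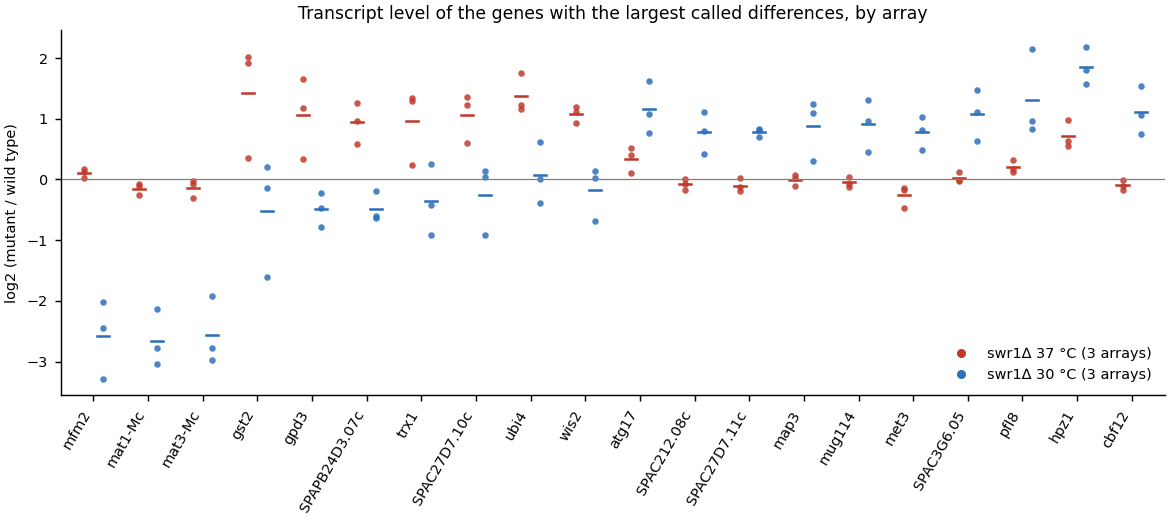
Transcript level (log2 ratio of mutant to wild type) for the 10 genes with the largest called differences in each direction, with 37 °C (red) left of 30 °C (blue). Points are arrays and bars are means of 3 arrays; the M mating-type genes lie near 0 at 37 °C and between -1.91 and -3.28 at 30 °C.

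Ubiquitin marks proteins for degradation, and 3 of its genes were called higher at 37 °C. The polyubiquitin gene ubi4 read 1.16, 1.76 and 1.22 at 37 °C and -0.39, 0.0014 and 0.62 at 30 °C, and rose by 1.30 ± 0.25 (adjusted p = 0.00663). The ubiquitin fusion gene ubi2 read 0.94, 1.68 and 1.11 at 37 °C and -0.59, 0.08 and 0.63 at 30 °C, and rose by 1.2 ± 0.22 (adjusted p = 0.00429). The AAA ATPase gene cdc48, whose product extracts ubiquitinated proteins, read 0.64, 1.07 and 1.09 at 37 °C and -0.20, -0.20 and 0.08 at 30 °C and rose by 1.04 ± 0.19 (adjusted p = 0.0044). The genes ubi4, ubi2 and cdc48 were above wild type on every 37 °C array. Of 39 ubiquitin and proteasome genes measured, 5 rose (12.8%, against 1.01% of all genes) and 0 fell, the other called members being the ubiquitin fusion gene ubi5 (0.78) and, named after its value was seen, the proteasome subunit gene pre8 (0.61). The ubiquitin fusion gene ubi1, also named after its values were seen, read -0.37, -0.017 and 0.25 at 37 °C and -0.50, -0.28 and -0.23 at 30 °C and was not called (adjusted p = 0.429). Ubiquitin genes share near-identical coding repeats, so the values of single genes are uncertain. The list had a median difference of 0.23, and 35 of its 39 genes had a positive difference (89.7%, against 60.1% of all genes). Without array 3 at 30 °C the list's median was 0.36.

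Among 29 heat shock and chaperone genes, 2 rose (6.9%, against 1.01% of all genes) and 0 fell. Their median difference was 0.20, against 0.053 over all genes, which was 0.11 without array 1 and 0.32 without array 3 at 30 °C. The p23-like co-chaperone gene wos2 read 0.64, 0.73 and 0.66 at 37 °C and -0.56, 0.12 and -0.27 at 30 °C, and rose by 0.91 ± 0.24 (adjusted p = 0.0467). The gene sti1, whose product links Hsp70 to Hsp90, read 0.41, 0.66 and 0.50 at 37 °C and -0.21, -0.036 and -0.26 at 30 °C, and rose by 0.69 ± 0.18 (adjusted p = 0.0467). The call of sti1 held in 5 of 13 alternatives and was lost without any 1 of the 6 arrays. That of wos2 held in 7 of 13 and was lost without any 1 of the arrays other than array 2 at 30 °C. Both calls were lost in a fit of the 6 arrays alone. The list's largest difference was in the disaggregase gene hsp104, named after its values were seen, which read 0.75, 0.79 and 0.65 at 37 °C and -0.46, -0.59 and -0.16 at 30 °C and was not called (1.14 ± 0.32, adjusted p = 0.0694). The small heat shock gene hsp16, also named afterwards, read 0.027, 0.046 and -0.53 at 37 °C and -1.60, -0.18 and -0.33 at 30 °C (adjusted p = 0.763), so that the 2 groups overlap.

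The cyclophilin gene wis2, whose product belongs to a family of protein-folding enzymes, read 0.93, 1.19 and 1.12 at 37 °C and -0.68, 0.14 and 0.029 at 30 °C. It rose by 1.25 ± 0.29 (adjusted p = 0.0339), and its 37 °C arrays lay closer together than its 30 °C arrays. Its 250 bases before the annotated start (chrI:4931164-4931413, minus strand, ASM294v3) are shown because they hold a heat shock element. The capitals mark a match to TTCNNGAANNTTC, which was searched with GAANNTTCNNGAA so as to cover both strands, and one of the patterns occurs in the same window of 0.409% of the 5134 genes. A match of letters does not show that a factor binds there.

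wis2, 250 bases before the start: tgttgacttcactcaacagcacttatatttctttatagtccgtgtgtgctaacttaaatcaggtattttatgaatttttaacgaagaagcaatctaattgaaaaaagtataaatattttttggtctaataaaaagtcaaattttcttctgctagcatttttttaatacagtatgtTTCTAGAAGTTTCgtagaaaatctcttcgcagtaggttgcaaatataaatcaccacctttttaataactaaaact

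Of the 50 genes called higher with a placed start, 1 held this element, and of the 23 called lower, 0 did. The half-site ACGTCA of the stress factor Atf1, searched with TGACGT, was present in 5 of the 50 (pfl2, wos2, btf3, tcb2 and SPAC959.06c) and in 1 of the 23 (SPAC3G6.05), against 5.55% of all genes. Of these, btf3, tcb2 and SPAC959.06c were named after their values were seen. The TR box was present in 2 of the 50, which are both Mc copies, and in 3 of the 23, which were SPAC3G6.05, gnr1 and mrz1. The last 2 genes were named after their values were seen.

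The glutathione S-transferase gene gst2 read 1.92, 2.02 and 0.36 at 37 °C and -1.60, 0.21 and -0.14 at 30 °C, and rose by 1.95 ± 0.46 (adjusted p = 0.0341). Its 37 °C arrays span a wide range, and array 3 lay close to the highest 30 °C array. The thioredoxin gene trx1 read 0.24, 1.34 and 1.30 at 37 °C and -0.92, -0.42 and 0.26 at 30 °C, so that the groups overlap, with a rise of 1.32 ± 0.33 (adjusted p = 0.0467). Of 34 core stress response genes measured, 2 rose (5.88%, against 1.01% of all genes) and 0 fell. A positive difference was present in 61.8% of them, against 60.1% of all genes, and their median difference was 0.11, which was 0.046 without array 1 and 0.21 without array 3 at 30 °C. Besides gst2 these include sty1, which encodes the stress-activated MAP kinase and read 0.12, 0.25 and 0.35 at 37 °C and -0.25, -0.34 and -0.17 at 30 °C, a rise of 0.50 ± 0.10 (adjusted p = 0.00973).

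The remaining transcripts among the 10 largest rises were gpd3 and 2 genes without a symbol. The glyceraldehyde-3-phosphate dehydrogenase gene gpd3 read 1.18, 1.65 and 0.34 at 37 °C and -0.22, -0.46 and -0.79 at 30 °C, with a rise of 1.54 ± 0.30 (adjusted p = 0.00773). SPAPB24D3.07c read 1.26, 0.97 and 0.59 at 37 °C and -0.20, -0.64 and -0.60 at 30 °C and rose by 1.42 ± 0.32 (adjusted p = 0.0265). SPAC27D7.10c read 1.36, 1.24 and 0.60 at 37 °C and -0.92, 0.14 and 0.033 at 30 °C and rose by 1.32 ± 0.28 (adjusted p = 0.0165). Each of these was above wild type on every 37 °C array.

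Most genes of glycolysis and of the ribosome had a positive difference, against 60.1% of all genes. Of 18 glycolysis and fermentation genes, 2 rose (gpd3 and the triose phosphate isomerase gene tpi1, 11.1% against 1.01% of all genes) and 0 fell, with a median difference of 0.47 and a positive difference in 16 of 18. For tpi1 the arrays read 0.12, 0.67 and 0.99 at 37 °C and -0.019, -0.35 and -0.13 at 30 °C (0.76 ± 0.20, adjusted p = 0.0467). The list's median on each array was 0.074, 0.34 and 0.35 at 37 °C and 0.0021, -0.27 and -0.17 at 30 °C. Of 55 small-subunit ribosomal protein genes, 3 rose (rps23, rps1402 and rps401, 5.45%) and 0 fell, with a median difference of 0.32 and a positive difference in 92.7%. Of 76 large-subunit genes, 2 rose (rpl3801 and rpl13, 2.63%) and 0 fell, with a median of 0.30 and a positive difference in 93.4%. The large-subunit median was -0.22, 0.022 and 0.22 on the 37 °C arrays and -0.26, -0.32 and -0.21 on the 30 °C arrays, so that 1 array at 37 °C lay within the 30 °C range. Without array 1 at 37 °C the median difference was 0.45 for large-subunit and 0.50 for small-subunit genes, and without array 3 at 37 °C it was 0.17 for large-subunit genes. For all genes together the array medians were -0.012, 0.00081 and 0.0098 at 37 °C and -0.059, -0.049 and -0.015 at 30 °C.

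In the called ribosomal protein genes the groups did not overlap. The largest of these rises was in rpl3801, which read 0.059, -0.12 and 0.066 at 37 °C and -1.34, -1.20 and -0.21 at 30 °C (0.92 ± 0.22, adjusted p = 0.038). The gene rps23 read -0.04, 0.23 and 0.24 at 37 °C and -0.92, -0.79 and -0.11 at 30 °C (0.75 ± 0.18, adjusted p = 0.0382). Both lay below wild type on every 30 °C array, by least on array 3. Many ribosomal protein genes have near-identical copies, so the values of single copies are uncertain. The differences of rps1402, rps401 and rpl13 were 0.57, 0.57 and 0.53.

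The histone genes were not called, although all 11 had a positive difference, with a median of 0.25. The median was 0.16 without array 1 and 0.39 without array 3 at 30 °C, and 0.15 with arrays scaled to equal spread. The H4 gene hhf1 had the largest, at 0.21, 0.92 and 0.95 on the 37 °C arrays and -0.87, -0.59 and 0.41 on the 30 °C arrays (1.04 ± 0.29, adjusted p = 0.0742), where array 3 at 30 °C overlaps the 37 °C range. The H4 gene hhf3 read -0.097, 0.16 and 0.33 at 37 °C and -0.80, -0.56 and 0.15 at 30 °C (adjusted p = 0.155). The H4 copies and the H3 copies are near-identical in coding sequence, so the values of single copies are uncertain.

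**Figure D3:**
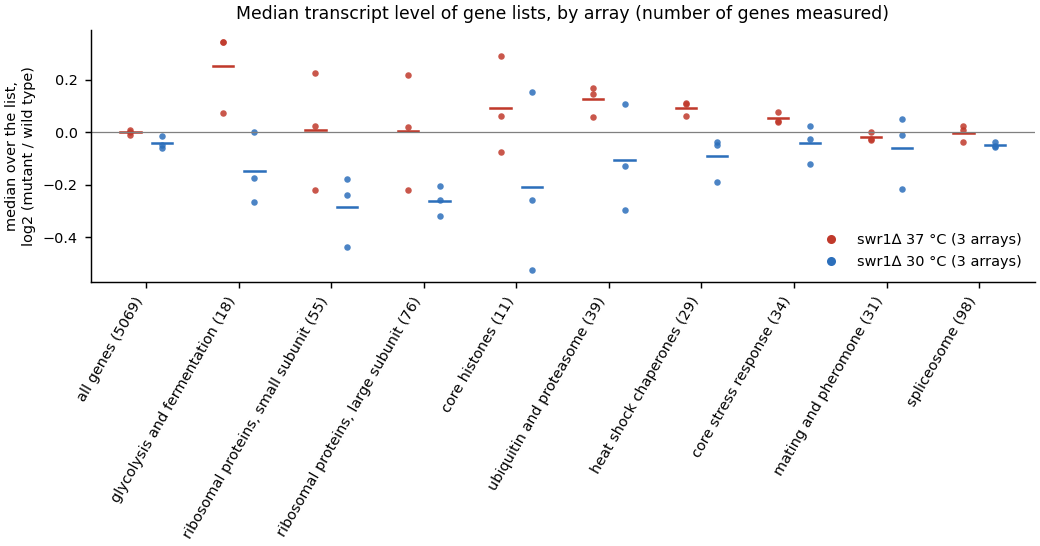
Median log2 ratio of mutant to wild type over the genes of each list, by array, with 37 °C (red) left of 30 °C (blue), bars for the mean of 3 arrays and the number of genes measured in brackets. The glycolysis medians do not overlap between temperatures, while those of the ribosomal protein and histone lists do.

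Among genes of chromatin, 26 genes listed as subunits of the SWR1 and INO80 complexes or linked to them were measured. Of these, 1 rose (3.85%, against 1.01% of all genes) and 1 fell (3.85%, against 0.454%). The actin gene act1, whose product is also a subunit of such complexes, read 0.41, 0.82 and 1.29 at 37 °C and -0.16, -0.17 and -0.065 at 30 °C and rose by 0.97 ± 0.24 (adjusted p = 0.0443). The gene hpz1 read 0.63, 0.97 and 0.55 at 37 °C and 1.80, 1.57 and 2.19 at 30 °C, and fell by 1.14 ± 0.27 (adjusted p = 0.034). It lay above wild type on all 6 arrays. This call held in 5 of 13 alternatives, and it was lost under both array scalings (-0.53 after quantile normalization), in a fit of the 6 arrays alone and without any 1 of the arrays other than array 2 at 30 °C.

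Of 17 flocculin genes and regulators, which act in cell adhesion, 1 rose (5.88%, against 1.01% of all genes), 2 fell (11.8%, against 0.454%) and the other 14 were not called. The CSL-family transcription factor gene cbf12 read -0.10, -0.17 and -0.0096 at 37 °C and 1.07, 0.74 and 1.55 at 30 °C, and fell by 1.21 ± 0.29 (adjusted p = 0.038). The flocculin gene pfl8 read 0.12, 0.18 and 0.32 at 37 °C and 2.15, 0.97 and 0.83 at 30 °C, and fell by 1.11 ± 0.26 (adjusted p = 0.0339), a call that was lost after quantile normalization. The flocculin gene pfl2 read 0.60, 0.57 and 0.97 at 37 °C and -0.25, -0.32 and -0.26 at 30 °C, and rose by 0.99 ± 0.25 (adjusted p = 0.0467). The calls of cbf12, pfl8 and pfl2 each held in 7 of 13 alternatives. Each was lost without any 1 of the 37 °C arrays and without array 1 at 30 °C. Those of cbf12 and pfl8 were also lost in a fit of the 6 arrays alone. Both genes that fell were above wild type on every 30 °C array, whereas pfl2 was above wild type on every 37 °C array.

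The other large falls share the pattern of elevation at 30 °C. The gene met3 read -0.14, -0.17 and -0.47 at 37 °C and 0.49, 0.82 and 1.03 at 30 °C and fell by 1.04 ± 0.19 (adjusted p = 0.00429). SPAC3G6.05 read -0.027, -0.0077 and 0.12 at 37 °C and 0.63, 1.11 and 1.47 at 30 °C and fell by 1.04 ± 0.22 (adjusted p = 0.0131). The meiotically upregulated gene mug114 read 0.036, -0.12 and -0.068 at 37 °C and 1.31, 0.97 and 0.46 at 30 °C and fell by 0.96 ± 0.16 (adjusted p = 0.00332). It was the 1 gene called among 91 of its class (1.1%, against 0.454% of all genes called lower). The genes met3, SPAC3G6.05 and mug114 lay above wild type on every 30 °C array. SPAC27D7.11c, the subtelomeric gene SPAC212.08c and the autophagy scaffold gene atg17 fell by 0.88, 0.86 and 0.82. The call of atg17 was lost under both array scalings (-0.37 after quantile normalization) and without array 2 or 3 at either temperature, and that of SPAC27D7.11c without any 1 of the 6 arrays. Of 48 subtelomeric and silenced genes, SPAC212.08c was the 1 that was called (2.08%, against 0.454% of all genes called lower). The 13 Tf2 retrotransposon copies, which share sequence, had a median of -0.12, -0.30 and -0.55 on the 37 °C arrays and -1.94, 0.61 and 1.27 on the 30 °C arrays, where 1 array lay far below and 2 far above wild type, and 0 of 13 were called.

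Of 98 spliceosome genes, 2 rose at the transcript level (cwf12 by 0.62 and sap62 by 0.43), which is 2.04% against 1.01% of all genes. Another 1 fell (cwf24 by 0.42), which is 1.02% against 0.454%, with a median difference of 0.056 (0.026 without array 2 at 37 °C), against 0.053 for all genes. Of 23 genes for RNA polymerases I and III, 1 rose (4.35%, against 1.01% of all genes). This was rpc2, which encodes the second-largest subunit of polymerase III and read 0.25, 0.20 and 0.34 at 37 °C and -0.22, -0.12 and -0.099 at 30 °C (0.41 ± 0.11, adjusted p = 0.0467).

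The splicing index fell in 11 introns, and the intron feature itself fell in 6 of them. Of these 6 introns, those of bud20, SPAC186.08c and ptc3 kept the call of the index in every alternative. All 6 are shown with their sequences, from the 5′ to the 3′ splice site of the annotated coding intron in ASM294v3. In each, capitals mark the first 6 bases, the last 3 bases and, where present, the last match to the branch motif CTAAC, in which G was allowed in place of the middle A and T in place of the final C. Introns were placed by their order within the gene, which held for 14 of the 16 called introns and not for those of hpz1 and ada1. All 6 lie on chromosome I, at chrI:4904041-4904099 (minus strand) for bud20, chrI:5549820-5549955 (minus) for SPAC186.08c, chrI:821006-821044 (minus) for ptc3, chrI:3286668-3286746 (plus) for rpc82, chrI:2885527-2885591 (plus) for SPACUNK4.13c, and chrI:827679-827902 (minus) for uba42.
bud20 intron 1: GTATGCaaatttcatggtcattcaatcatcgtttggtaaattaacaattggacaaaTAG
SPAC186.08c intron 1: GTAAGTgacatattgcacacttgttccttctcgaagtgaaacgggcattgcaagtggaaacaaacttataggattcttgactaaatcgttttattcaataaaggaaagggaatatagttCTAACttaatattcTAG
ptc3 intron 2: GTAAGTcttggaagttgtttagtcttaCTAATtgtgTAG
rpc82 intron 1: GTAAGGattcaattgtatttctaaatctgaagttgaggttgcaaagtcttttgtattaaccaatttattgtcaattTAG
SPACUNK4.13c intron 1: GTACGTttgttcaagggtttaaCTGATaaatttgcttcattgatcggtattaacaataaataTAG
uba42 intron 1: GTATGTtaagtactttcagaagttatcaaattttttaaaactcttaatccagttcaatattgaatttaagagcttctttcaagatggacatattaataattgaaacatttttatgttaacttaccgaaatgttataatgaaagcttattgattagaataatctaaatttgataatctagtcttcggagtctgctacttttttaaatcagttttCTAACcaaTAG

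The introns range from 39 bases in ptc3 to 224 bases in uba42, around a median of 56 bases over annotated introns. The commonest 5′ splice site, GTAAGT, which 27.4% of 5022 annotated introns carry, opens those of SPAC186.08c and ptc3, and GTATGT (20% of introns) opens that of uba42. The others open with GTATGC in bud20 (3.92% of introns), GTAAGG in rpc82 (2.47%) and GTACGT in SPACUNK4.13c (5.26%). The branch motif was found in 4 of the 6, not in bud20 or rpc82, and in 76.3% of annotated introns. It lies 35 bases before the last 3 in SPACUNK4.13c, against 9 in SPAC186.08c, 4 in ptc3 and 3 in uba42. Other forms, such as TTAAC, were not searched, so the marks do not settle where a branch site lies or whether one is absent. All 6 end in TAG, as do 68.5% of annotated introns.

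The largest change was in the single intron of bud20, a gene of ribosome biogenesis. Its index read 0.12, 0.21 and -0.38 on the 37 °C arrays and 3.51, 3.21 and 2.79 on the 30 °C arrays. The intron's ratio to wild type thus exceeded that of the exons on every 30 °C array and not on the 37 °C arrays as a group. The index fell by 3.19 ± 0.35 (limma adjusted p = 2.12e-06). The intron feature alone averaged 0.11 at 37 °C and 2.70 at 30 °C (adjusted p = 0.00049), and the exon feature 0.13 at 37 °C and -0.47 at 30 °C, so both lay nearer to 0 at 37 °C.

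The intron of SPAC186.08c had an index of 0.13, 0.05 and 0.075 at 37 °C and 2.54, 3.20 and 1.84 at 30 °C, and fell by 2.44 ± 0.28 (adjusted p = 3.61e-06). Its exon feature averaged -0.047 at 37 °C and -0.22 at 30 °C, so that nearly all of the change lay in the intron feature. The second intron of ptc3, which encodes a PP2C protein phosphatase, had an index of 0.089, -0.14 and -0.41 at 37 °C and 1.73, 1.33 and 1.98 at 30 °C and fell by 1.84 ± 0.25 (adjusted p = 5.29e-05). The intron of rpc82, a subunit gene of RNA polymerase III, had an index of 0.15, 0.19 and -0.05 at 37 °C and 1.95, 1.43 and 1.93 at 30 °C, and fell by 1.67 ± 0.22 (adjusted p = 2.76e-05). In all 3 introns every 30 °C array lay far above every 37 °C array.

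Intron 1 of SPACUNK4.13c had an index of -0.011, -0.088 and -0.23 at 37 °C and 1.92, 0.72 and 0.93 at 30 °C, a fall of 1.30 ± 0.27 (adjusted p = 0.0208). This call held in 11 of 15 alternatives. It was lost in a fit of the 6 arrays alone, without array 2 or 3 at 37 °C and without array 1 at 30 °C. Intron 1 of uba42 read 0.27, 0.091 and 0.042 at 37 °C and 1.53, 1.05 and 1.70 at 30 °C, a fall of 1.29 ± 0.21 (adjusted p = 0.000739). With the junction features of the gene in place of its exon feature as reference, the index fell by 2.71 in bud20, 2.23 in SPAC186.08c, 1.69 in ptc3 and 1.02 in SPACUNK4.13c, each called, and by 1.34 in rpc82 (adjusted p = 0.0501) and 1.06 in uba42 (adjusted p = 0.0763).

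In the other 5 introns with a lower index the intron feature was not called. The index of mfm2 intron 1 read -0.01, -0.037 and -0.27 at 37 °C and 2.12, 2.47 and 3.15 at 30 °C and fell by 2.69 ± 0.36 (adjusted p = 3.03e-05). Its intron feature averaged -0.0014 at 37 °C and 0.0038 at 30 °C, so that the difference lay in the exon feature of mfm2 described above. The ada1 index fell by 1.04, again with the exon feature moving more (0.90 higher) than the intron feature (0.14 lower). Among the remaining introns, of which tim9, srp2 and ada1 were named after their values were seen, the indices of pre5 intron 3 (a proteasome subunit gene), tim9 intron 1 (a mitochondrial import chaperone gene) and srp2 intron 6 (an SR splicing factor gene) fell by 1.07, 1.05 and 0.84. In pre5 the exon feature moved more than the intron feature, and in tim9 and srp2 the intron feature did.

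The index rose in 5 introns, by 0.70 to 1.04. Intron 1 of rli1, the gene of an ATPase that recycles ribosomes, had an index of 0.19, 0.52 and 0.31 at 37 °C and -0.95, -0.45 and -0.37 at 30 °C, a rise of 0.93 ± 0.20 (adjusted p = 0.0344), and its intron feature was called too. Intron 2 of tif308, an eIF3 subunit gene, read 0.25, 0.52 and 0.11 at 37 °C and -0.93, -0.38 and -0.30 at 30 °C (0.83 ± 0.19, adjusted p = 0.0404). Intron 1 of naa25, a subunit gene of an N-terminal acetyltransferase, read 0.33, 0.52 and 0.38 at 37 °C and -0.74, -0.18 and -0.15 at 30 °C (0.76 ± 0.17, adjusted p = 0.0437). Intron 3 of sap114, a U2 snRNP protein gene, read 0.15, 0.16 and 0.39 at 37 °C and -0.69, -0.41 and -0.28 at 30 °C (0.70 ± 0.16, adjusted p = 0.0425). These 4 introns lay above wild type on every 37 °C array and below it on every 30 °C array. With junction features as reference their rises were 0.54 to 0.82, and all 4 calls were lost (limma adjusted p from 0.0976 to 0.26). The 4 calls were also lost in a fit of the 6 arrays alone, without array 2 or 3 at 37 °C and without array 1 at 30 °C. The rise of hpz1 intron 1, 1.04 ± 0.21 (adjusted p = 0.0152), came with an intron feature at 0.0099 at 37 °C and 0.10 at 30 °C, so that the difference lay in the exon feature of that gene, and with junction features as reference its difference was 0.0097.

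**Figure D4:**
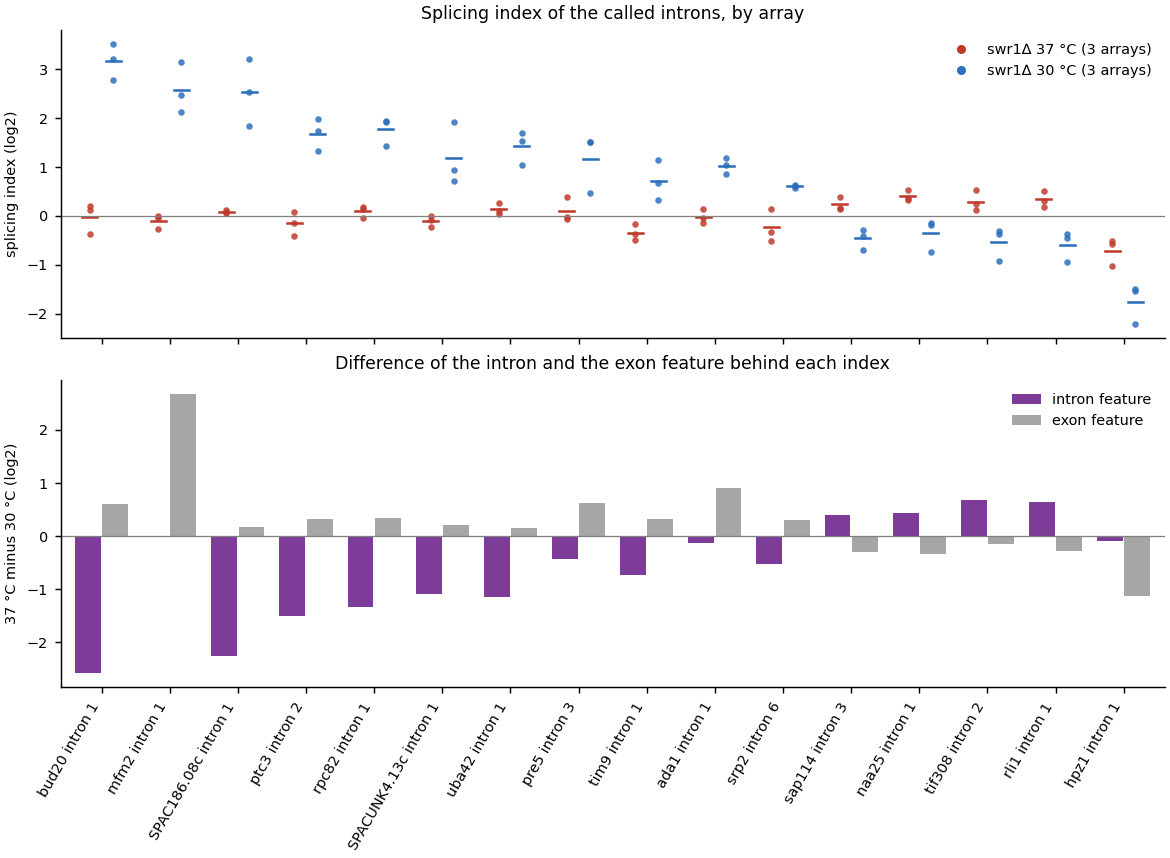
Upper panel, splicing index (log2) of the 16 called introns on each array, with 37 °C (red) left of 30 °C (blue) and bars for means of 3 arrays. Lower panel, the difference 37 °C minus 30 °C of the intron feature (purple) and of the exon feature (grey) behind each index; the intron feature carries the difference in bud20, SPAC186.08c and ptc3, and the exon feature in mfm2, ada1 and hpz1.

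Called introns were spread over all positions in a gene. Of 1039 single introns 2 rose and 5 fell, of 1265 first introns 1 rose and 3 fell, of 1241 internal introns 1 rose and 1 fell, and of 1276 last introns 1 rose and 2 fell. By chromosome, 9 of the 11 introns with a lower index lie on chromosome I, which holds 44.3% of the introns tested. For junction features that were lower, 15 of 26 lie on chromosome I, which holds 44.1% of those tested, and for transcripts called lower 8 of 23, against 45% of genes.

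Of the 26 junction features that fell, 22 had a mean within 0.3 of wild type at 37 °C, where the spread of all features was narrower. The largest fall was in mcp1. Junction 1-2 of mcp1 read -0.12, -0.11 and -0.44 at 37 °C and 2.75, 1.05 and 1.80 at 30 °C and fell by 2.09 ± 0.34 (limma adjusted p = 0.00197). The mcp1 exon feature averaged 0.075 at 37 °C and 0.085 at 30 °C, and the index of its intron 1 averaged -0.035 at 37 °C and 0.12 at 30 °C. Junction 2-3 of psg2 read 0.21, 0.20 and 0.089 at 37 °C and 1.39, 1.09 and 1.76 at 30 °C and fell by 1.25 ± 0.15 (adjusted p = 5.62e-05). Junction 5-6 of SPAC6F6.16c read 0.057, -0.094 and -0.18 at 37 °C and 1.70, 0.84 and 0.93 at 30 °C and fell by 1.23 ± 0.20 (adjusted p = 0.00197). In all 3 genes every 30 °C array lay above every 37 °C array.

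In 2 other large falls the groups overlapped. Junction 3-4 of alg2, a gene of N-glycan synthesis, read -0.11, -0.042 and -0.28 at 37 °C and 3.0, 2.57 and -0.21 at 30 °C, so that array 3 at 30 °C lay within the 37 °C range (-1.93 ± 0.47, adjusted p = 0.0488). Junction 3-4 of SPBC13G1.05 read 0.021, -0.014 and -0.16 at 37 °C and 2.64, 1.4 and -0.11 at 30 °C, again with array 3 apart from the other 30 °C arrays (-1.36 ± 0.32, adjusted p = 0.0408). In SPAC3G6.05 all 3 junction features fell, by 0.92, 0.89 and 0.68, together with the exon feature of that gene, which fell by 1.04.

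Among the smaller falls, 3 are given as examples, named after their values were seen. They were prp17 junction 1-2, in a splicing factor gene, which fell by 0.90 (adjusted p = 0.00395), ssu72 junction 1-2, in a gene for a phosphatase of RNA polymerase II, which fell by 0.98 (adjusted p = 0.0364), and rpb1 junction 3-4, in the gene of the largest polymerase II subunit, which fell by 0.62 (adjusted p = 0.028). The ssu72 junction read 0.71, 0.56 and 0.48 at 37 °C and 1.41, 1.18 and 2.1 at 30 °C, above wild type on all 6 arrays.

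Among the 8 junction features that rose, 1-2 of SPAC27E2.14 had the largest difference. It read 0.027, -0.091 and -0.12 at 37 °C and -1.21, -0.79 and -0.91 at 30 °C and rose by 0.91 ± 0.15 (adjusted p = 0.00238). Junction 2-3 of tbp1, which encodes the TATA-binding protein, read -0.14, 0.34 and 0.36 at 37 °C and -1.12, -0.82 and -0.058 at 30 °C, with overlapping groups (0.85 ± 0.20, adjusted p = 0.038). Junction 3-4 of SPCC126.12 rose by 0.73 ± 0.18, and junction 3-4 of tif223 rose by 0.48 ± 0.11. The tif223 junction was above wild type at 37 °C, at 0.57, 0.68 and 0.34, with its exon feature at 0.044, against -0.052, -0.024 and 0.22 at 30 °C.

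The 24 arrays that this contrast does not use show where else the called features departed from wild type. The group that most often matched swr1∆ at 30 °C was pht1∆ at 30 °C, whose strain is labelled as lacking the histone variant that Swr1 places. Of the 11 introns with a lower index at 37 °C, 10 had a mean index in pht1∆ at 30 °C of the same sign as in swr1∆ at 30 °C and at least 50% of its size, and 6 did in pht1∆ at 16 °C. In the double mutants with pht1∆ few did, 2 of 11 in pht1∆ usp107DAmP at 30 °C and 1 of 11 in pht1∆ prp16DAmP at 16 °C. In swr1∆ prp16DAmP at 37 °C 1 of 11 did, and in prp16DAmP at 37 °C 0 of 11. In usp107DAmP at 30 °C 1 of 11 did, and in prp16DAmP at 16 °C 2 of 11. The swr1∆ group at 37 °C is left out, because these features were chosen for a lower value there than in swr1∆ at 30 °C. For the 26 junctions with a lower value, 17 did in pht1∆ at 30 °C and 8 in pht1∆ at 16 °C. In pht1∆ usp107DAmP at 30 °C 2 of 26 did, and in pht1∆ prp16DAmP at 16 °C 4 of 26. In prp16DAmP and in swr1∆ prp16DAmP at 37 °C 0 of 26 did. The arrays of these 2 groups at 37 °C had a narrower spread over all features (SD 0.13 to 0.21) than those of pht1∆ at 30 °C (0.33 to 0.39). Fewer matches are therefore likely there for any feature, and the share of all features that match is not given here. The arrays of all groups share the platform and a wild-type channel, and no test was made across groups.

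For bud20 intron 1, the mean index was 3.78 in pht1∆ at 30 °C, 1.69 in pht1∆ at 16 °C and 1.07 in pht1∆ usp107DAmP at 30 °C. In swr1∆ prp16DAmP and prp16DAmP at 37 °C it was 0.38 and 0.26. The mat1-Mc transcript averaged -2.85 in pht1∆ at 30 °C and -2.79 in pht1∆ at 16 °C, close to the -2.65 of swr1∆ at 30 °C. In the 6 other groups besides swr1∆ at 37 °C its mean lay between -0.24 and 0.053. Of these groups, the double mutant swr1∆ prp16DAmP (37 °C) averaged 0.053. Double mutants of pht1∆ averaged -0.079 with usp107DAmP (30 °C) and -0.24 with prp16DAmP (16 °C). The low mat1-Mc values were therefore absent from double mutants labelled with the same deletions, and the cause was not tested. The mfm2 transcript was low in the same groups as mat1-Mc, with -2.87 in pht1∆ at 30 °C and -5.07 in pht1∆ at 16 °C. The hpz1 transcript averaged 1.79 in pht1∆ at 30 °C and 1.32 at 16 °C, and 0.72 in swr1∆ at 37 °C against 0.23 in swr1∆ prp16DAmP at 37 °C.

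The transcripts called higher at 37 °C divided differently over the groups. Of these 51, 32 had a mean in pht1∆ at 30 °C with the sign and at least 50% of the size of that in swr1∆ at 30 °C. The same held for 28 in pht1∆ prp16DAmP at 16 °C, 24 in prp16DAmP at 16 °C and 23 in swr1∆ prp16DAmP at 37 °C. All groups at 16 °C are listed with a shift of 9 hours. It held for 14 in pht1∆ at 16 °C and for 6 to 9 in each remaining group besides swr1∆ at 37 °C. Another 4 counted in pht1∆ at 30 °C had the sign and at least 50% of the size of the mean in swr1∆ at 37 °C. In the other groups at 37 °C, 4 (prp16DAmP) and 5 (swr1∆ prp16DAmP) of 51 reached 50% of the value of swr1∆ at 37 °C. That size was reached in 27 of 51 in usp107DAmP at 30 °C and in 27 of 51 in pht1∆ usp107DAmP at 30 °C. The arrays of these usp107DAmP groups had a wider spread over all features (SD 0.28 to 0.46) than the other groups at 37 °C (0.13 to 0.21). More matches are therefore likely in the usp107DAmP groups for any gene, and the share of all genes that match is not given here. For ubi4 the means were 1.5 in usp107DAmP and 1.28 in pht1∆ usp107DAmP, against 1.38 in swr1∆ at 37 °C and -0.29 in swr1∆ prp16DAmP at 37 °C. For gst2 they were 1.38 and 0.84 in the same usp107DAmP groups, against 1.43 in swr1∆ at 37 °C and -0.94 in swr1∆ prp16DAmP at 37 °C.

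**Figure D5:**
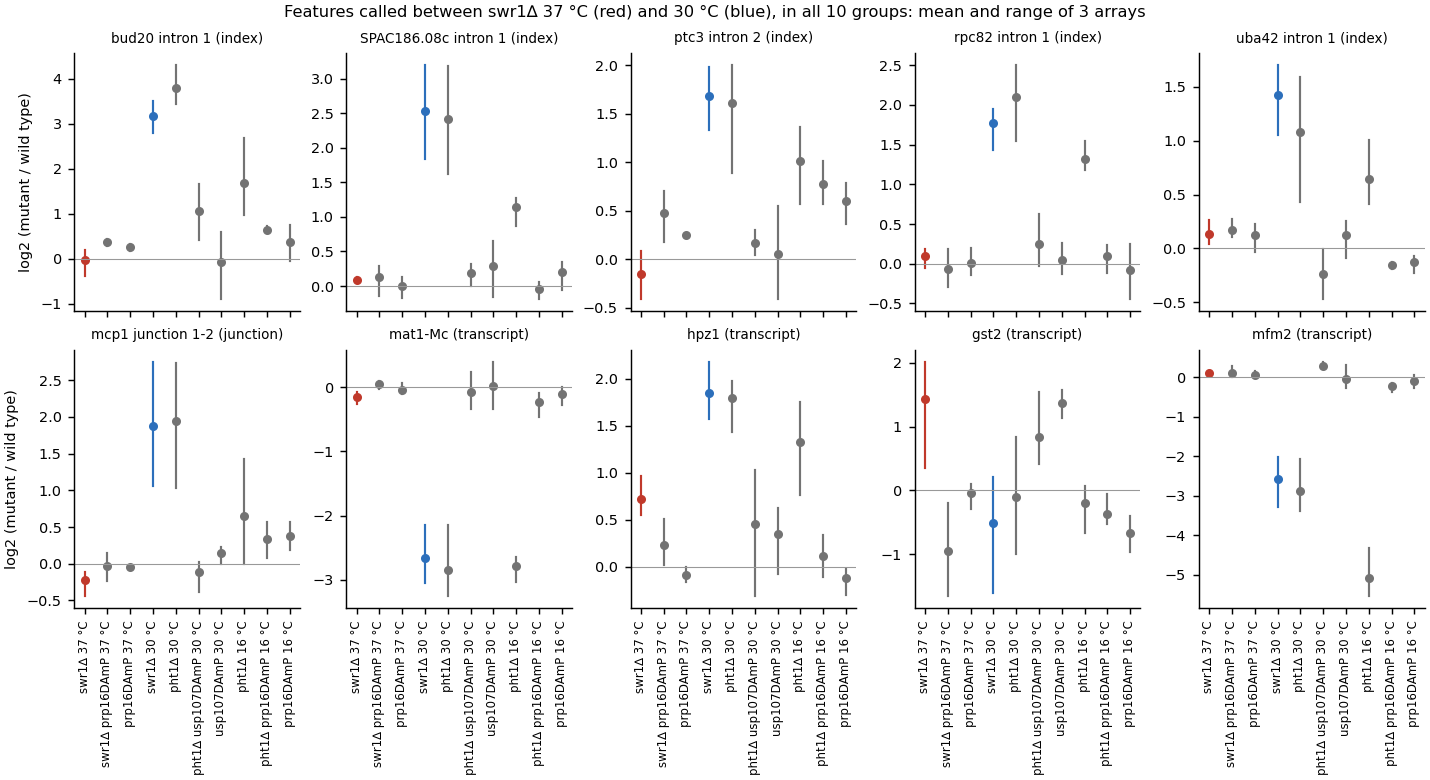
Mean (point) and range (line) of 3 arrays for 10 called features in each of the 10 groups, as log2 ratios of mutant to wild type, with swr1∆ 37 °C in red and swr1∆ 30 °C in blue, and a separate vertical scale in each panel. The introns, the mcp1 junction and the mating-type genes depart from 0 in swr1∆ at 30 °C and in pht1∆ at 30 and 16 °C, while gst2 is elevated in swr1∆ at 37 °C and in the usp107DAmP groups.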

How the data were processed

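RNA of each mutant (Cy5) and of wild type (Cy3) was hybridised to 2-colour splicing arrays, with no dye swap among the arrays per the labels, so dye bias was not balanced. The authors deposited 1 log ratio per feature and array, which was taken as log2 (Cy5 over Cy3, so mutant over wild type, per the labels). Medians of the 30 arrays lay between -0.00602 and 0.0254, so these values look centred. Scanner, log base and normalization method were not given in the sources used here. Total RNA was extracted with hot acid phenol, per the labels' protocols.

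Features were divided into exon, intron and junction features, and the splicing index was intron minus exon of the same gene. A linear model over all 30 arrays, with 1 mean per group and no covariates, gave the difference 37 °C minus 30 °C (limma 3.58.1 in R 4.3.3, eBayes). P-values were adjusted by Benjamini-Hochberg over all features of a kind, with a threshold of 0.05. The code was tested on simulated differences. Replicate numbers did not pair the arrays of both groups (correlation of deviations from -0.078 to 0.125), so no block was used. Alternatives covered the arrays in the fit, array scaling, weights, moderation, a replicate block, repeated values, the size of the difference, the reference of the index and each array left out.

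The genes, lists and comparisons were chosen with earlier results of these data known. Named were the 10 genes, 8 introns and 5 junctions with the largest called differences in each direction, swr1, pht1, and the called members of the lists described (up to 4, or with none called up to 2 by size). A few called features that this rule names are not reported here. Introns and gene starts were placed in the RefSeq annotation of ASM294v3, which need not be the build of the array design. Gene counts of lists are descriptions, without a set test.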

Additional observations from a re-analysis of the deposited data

Results flagged for a closer look

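For 19 results, all 3 arrays at 37 °C lay on one side of wild type and all 3 arrays at 30 °C on the other. The difference 37 °C minus 30 °C of each was tested with limma as in the report. Whether the mean of either group differs from wild type was not tested.

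Among transcripts, those above wild type at 37 °C and below it at 30 °C differed by 2.68 for mfm2, 1.54 for gpd3, 1.42 for SPAPB24D3.07c, 0.99 for pfl2, 0.97 for act1, 0.76 for tpi1, 0.69 for sti1, 0.57 for rps401, 0.50 for sty1 and 0.41 for rpc2, on the log2 scale. Those below wild type at 37 °C and above it at 30 °C differed by -1.21 for cbf12 and -1.04 for met3. Among splicing indices, the difference was 0.93 for rli1 intron 1, 0.83 for tif308 intron 2, 0.76 for naa25 intron 1 and 0.70 for sap114 intron 3, each above 0 at 37 °C. It was -2.69 for mfm2 intron 1 and -1.30 for SPACUNK4.13c intron 1, each below 0 at 37 °C. The junction feature 1-2 of mcp1 differed by -2.09. For mfm2 the 37 °C arrays were close to wild type, so that the opposite signs rest on values near 0. The mfm2 result is not the only such case. At 37 °C an array read -0.0096 for cbf12, -0.011 for SPACUNK4.13c intron 1 and -0.01 for mfm2 intron 1, and at 30 °C an array read -0.019 for tpi1.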

How the results depend on the processing

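The count of calls depended on how the spread of the arrays was treated, while no named gene, intron or junction that was called changed direction under any alternative. In place of 74 genes, 16 introns and 34 junction features, a fit of the 6 arrays alone called 12, 7 and 17. Arrays scaled to equal spread gave 353 genes (251 higher, 102 lower), 198 introns and 154 junction features (52 and 102). Quantile normalization gave 332 genes, 214 introns (100 and 114) and 177 junction features (45 and 132), and array weights, whose estimation stopped before full convergence, gave 857, 299 and 330. Leaving out features with repeated values gave 26 introns, 6 higher and 20 lower. With each array left out in turn, 15 to 245 genes, 7 to 204 introns and 8 to 121 junction features were called, with the lowest count of genes without array 2 at 37 °C, the lowest counts of introns and junctions without array 3 at 37 °C, and the highest counts without array 3 at 30 °C. The replicate numbers did not pair the arrays, and with a replicate block 80 genes, 36 introns and 41 junction features were called, while the named transcripts sti1, pfl2, rpc2, cwf24 and SPAC27D7.11c were no longer called. The cause of these changes was not tested. Alternatives with fewer arrays have fewer degrees of freedom. The number of arrays, the lack of a dye swap and the unstated processing limit what small differences can show.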
